A study of Mus musculus with 24 samples.

Results

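Genes of mitosis, the spindle and the kinetochore were followed in cultured mouse embryonic fibroblasts by RNA sequencing. The set holds 45 genes of 45706 gene IDs in the count table. They were chosen by symbol to cover 9 roles: the kinases and cyclins of mitotic entry, the spindle checkpoint and the activator of the anaphase-promoting complex (APC/C), separase and securin, kinesin motors, the kinetochore, the chromosomal passenger complex, spindle assembly, the central spindle with cytokinesis, and mitotic chromosome proteins. Earlier results of these data were known when the genes were chosen. All 45 were found in the table, and all 45 passed the filter on low counts.

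The fibroblasts came from E13.5 embryos, which means embryonic day, and had 1 of 4 genotypes, named Vhl, Vhl/Rassf1a, Rassf1a and WT (wild type). Each genotype had 3 libraries named Cre, which the labels give as knockout even in WT cells, and 3 named GFP, which they give as control, so there were 8 groups and 24 libraries. Cre is the recombinase that deletes loxP-flanked DNA, and GFP is a fluorescent protein used as its control. How either was delivered, which exons were deleted and which alleles the cells carried are not stated in the labels. The labels do not say that replicates were separate cultures or embryos, so the p-values cover the spread among these libraries alone, and that spread may be technical.

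A dividing cell condenses its chromosomes when cyclin B and its kinase Cdk1 become active, captures them on a microtubule spindle through the kinetochores, and holds back anaphase through the spindle checkpoint until every chromosome is attached. The APC/C with its activator Cdc20 then destroys cyclin B and securin, separase cuts the rings that hold sister chromatids, and the central spindle guides the division of the cell body. Most of these genes are transcribed late in the cell cycle, so in a culture their RNA can follow the share of cells near division. Vhl is the ubiquitin ligase subunit that marks hypoxia-inducible factors (HIF) for degradation and is lost in most clear cell kidney cancers, and Rassf1a is a microtubule-binding scaffold of the Hippo pathway that is often silenced in the same cancers.

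Promoter sequence is shown first because late cell cycle genes are known for a shared pair of short elements: the cell cycle homology region, searched here as TTTGAA or TTCGAA, and the box bound by NF-Y, searched as CCAAT, each on both strands. RefSeq promoter windows of build GRCm38.p6, from 250 bases before to 50 bases after an annotated start, were at hand for 38 of the 45 genes and were not found for Aurkb, Ccna2, Cdc25c, Incenp, Kif20a, Spc24 and Tpx2. The printed sequences run 5′ to 3′ on the gene's strand from 120 bases before to 30 bases after the start, with matches to either element in capitals. They are cyclin B2 (Ccnb2, chr9:70421525-70421674, minus strand), the APC/C activator Cdc20 (chr4:118437314-118437463, minus strand), the motor Kif23 (chr9:61946770-61946919, minus strand), the spindle pole protein Aspm (chr1:139454653-139454802, plus strand), the checkpoint protein Bub3 (chr7:131560250-131560399, plus strand) and survivin (Birc5, chr11:117849117-117849266, plus strand). These genes were picked as examples. Ccnb2, Cdc20, Kif23, Aspm and Bub3 held matches to both elements, and Birc5 held no match in this stretch. By whole window, the median log2 change with Cre in Vhl cells was -0.81 for 25 genes with both elements. It was -0.80 for 4 genes with the homology region only, -0.82 for 2 with the NF-Y box only and -0.70 for 7 with neither. A link between the elements and the size of the change was not tested.
Ccnb2: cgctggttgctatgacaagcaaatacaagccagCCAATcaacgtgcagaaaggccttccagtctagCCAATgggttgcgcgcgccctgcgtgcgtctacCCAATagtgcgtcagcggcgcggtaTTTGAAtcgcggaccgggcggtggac
Cdc20: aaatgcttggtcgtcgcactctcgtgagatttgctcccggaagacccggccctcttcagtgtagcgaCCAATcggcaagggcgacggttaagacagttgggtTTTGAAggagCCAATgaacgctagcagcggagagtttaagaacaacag
Kif23: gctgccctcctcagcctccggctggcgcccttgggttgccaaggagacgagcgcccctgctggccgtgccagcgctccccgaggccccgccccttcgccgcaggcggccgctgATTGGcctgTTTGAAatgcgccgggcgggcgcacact
Aspm: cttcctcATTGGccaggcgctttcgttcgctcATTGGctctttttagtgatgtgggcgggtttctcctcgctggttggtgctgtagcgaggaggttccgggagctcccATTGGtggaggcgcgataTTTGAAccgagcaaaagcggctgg
Bub3: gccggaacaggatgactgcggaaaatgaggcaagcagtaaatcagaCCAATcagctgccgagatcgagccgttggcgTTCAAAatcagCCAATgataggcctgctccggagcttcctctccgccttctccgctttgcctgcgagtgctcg
Birc5: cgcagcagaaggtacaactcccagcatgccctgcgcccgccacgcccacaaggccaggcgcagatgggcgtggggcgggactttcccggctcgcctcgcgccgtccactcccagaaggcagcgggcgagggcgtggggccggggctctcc

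Of the 38 genes with a window, 76.3% held a match to the cell cycle homology region, against 21.7% of all 27025 genes of the table with a window. The NF-Y box was found in 71.1% of the 38 genes, against 41.1% of all genes, and both elements together in 65.8%, against 8.61%. These shares count matches of letters and no bound sites, and are descriptions without a test. The homology region depended on the bases after the start: in only the 150 bases before it the share was 31.6% of the mitosis genes and 11.2% of all genes, while the NF-Y box remained at 71.1% and was at 27.7% of all genes. Some genes have overlapping windows from neighbouring starts, and a site found in more than 1 of them was counted once, by the start nearest to it. Of the 40 homology region matches 28 had their middle within 60 bases of the start, and of the 60 NF-Y box matches 30.

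**Figure D1:**
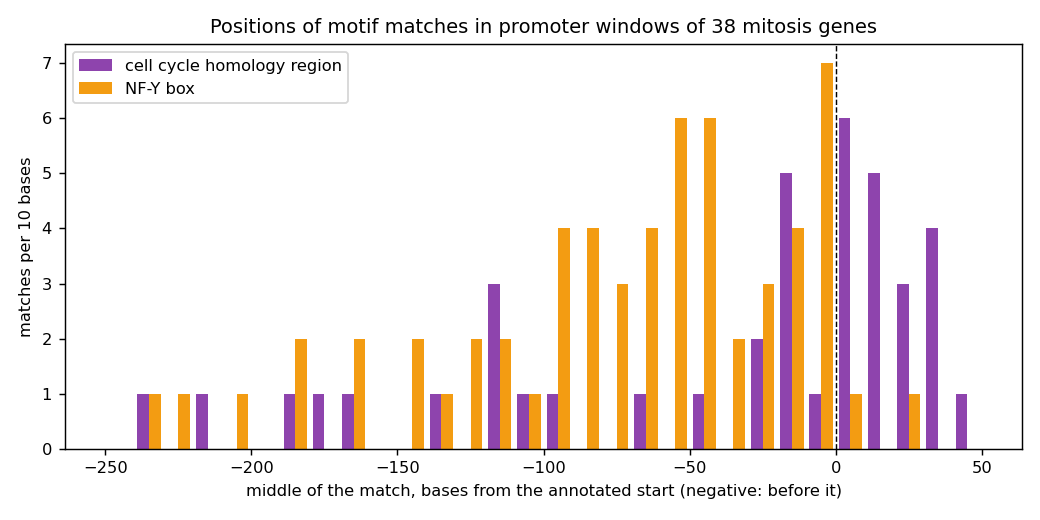
Matches to the cell cycle homology region (purple) and to the NF-Y box (orange) per 10 bases, by distance in bases of the middle of the match from the annotated start, over the promoter windows of 38 mitosis genes. Most homology region matches (28 of 40) lie within 60 bases of the start. Positions were not compared with those in other genes.

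Library totals ran from 29.9 to 55.8 M counts, and levels are given as counts per 1 M counts of a library (CPM). For CPM the library total was taken over the genes kept by the filter and scaled by TMM, a factor for library composition. The labels were checked against the targeted genes. Vhl read 2.34 to 2.85 CPM in Vhl Cre libraries against 25.7 to 27.6 in Vhl GFP libraries, and 1.77 to 2.7 CPM in Vhl/Rassf1a Cre libraries against 20.8 to 23.8 in Vhl/Rassf1a GFP libraries. Rassf1, the gene of Rassf1a, read 25.2 to 27.5 CPM in Rassf1a Cre libraries against 25.8 to 31.2 in Rassf1a GFP libraries, and 42.8 to 46.9 CPM in Vhl/Rassf1a Cre libraries against 30.1 to 37.2 in Vhl/Rassf1a GFP libraries. A count over the whole gene sums all its transcripts and checks nothing about the Rassf1a isoform. All 8 HIF target genes on a check list were higher with Cre in both genotypes that carry the Vhl alteration, and none in Rassf1a or WT cells. The 12 fibroblast markers were all detected, with a summed level of 39200 to 59600 CPM over the groups, and none of the 8 erythroid markers reached 1 CPM. Library Vhl/Rassf1a GFP replicate 2 and library Rassf1a GFP replicate 1 stood apart from their groups along gene GC content. Their deviations correlated across genes with GC at 0.806 and 0.792. Many of the call counts that rest on them are given without them as well. Summed levels, group means and coefficients of variation include them. Deviations along GC were not confined to these libraries. The correlation was 0.619 for WT Cre replicate 2, 0.603 for WT GFP replicate 3 and -0.582 for Vhl Cre replicate 1.

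The summed level of the 45 genes was lowest in Vhl Cre cells. It was 1244 ± 53.1 CPM there, 2056 ± 18.6 in Vhl GFP cells, 2258 ± 26.3 in Vhl/Rassf1a Cre cells, 2757 ± 75.3 in Vhl/Rassf1a GFP cells, 2796 ± 53.5 in Rassf1a Cre cells, 2727 ± 55.9 in Rassf1a GFP cells, 2897 ± 61.9 in WT Cre cells and 2866 ± 94.9 in WT GFP cells (SD, n = 3 each). Relative to WT GFP cells these are 43.4% in Vhl Cre, 71.7% in Vhl GFP, 78.8% in Vhl/Rassf1a Cre and 96.2% in Vhl/Rassf1a GFP cells, with the remaining groups between 95.2% and 101%. The level was thus lower in Vhl GFP than in WT GFP cells, and lower again in Vhl Cre cells. Fewer dividing cells and less RNA per cell cannot be told apart in bulk RNA.

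**Figure D2:**
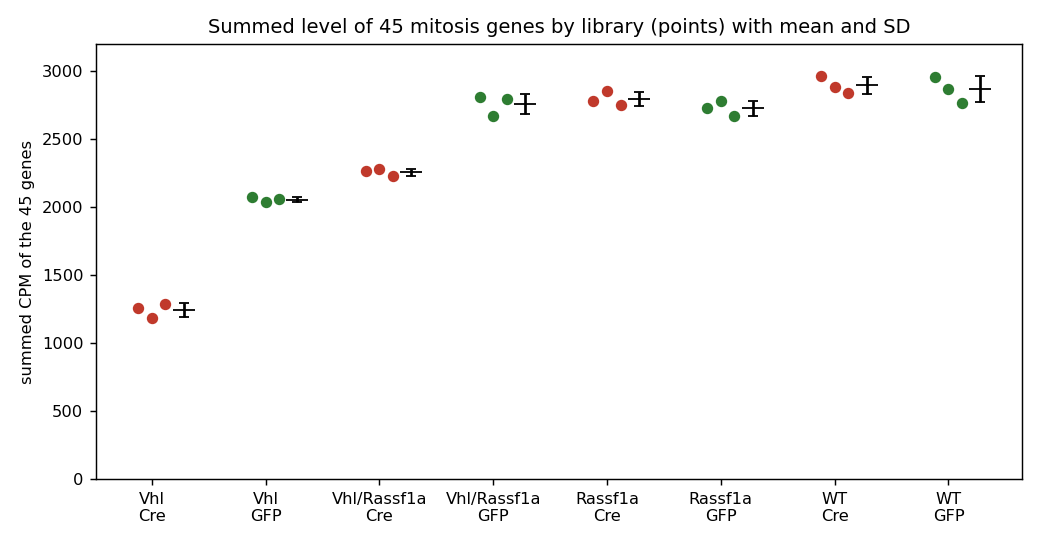
Summed CPM of the 45 mitosis genes in each of 24 libraries (points; red Cre, green GFP), with the mean and SD of 3 libraries beside them, by group. The 3 Vhl Cre libraries sit between 1184 and 1286, below every other library.

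In Vhl cells 44 of the 45 genes fell with Cre and none rose (edgeR quasi-likelihood test, Benjamini-Hochberg adjusted p below 0.05 over 16573 genes), where 18.7% of all genes tested were lower and 17.4% higher. Their median log2 change was -0.80, with a range of -1.29 to -0.23, against a median of -0.01 over all genes. All 3 Cre libraries lay below all 3 GFP libraries for 45 of the 45 genes, which held for 27.5% of all genes. Kif18a, a kinesin that damps chromosome movements at the metaphase plate, read 8.85, 7.74 and 7.57 CPM in Vhl Cre libraries against 10.7, 9.28 and 9.6 in Vhl GFP libraries. It was the 1 gene not called, at -0.29 (SE 0.15, adjusted p = 0.147, edgeR). It was called under 3 of the other settings tried, with -0.30 and an adjusted p of 0.03 without the filter on low counts. The calls of the other 44 genes held under every setting tried and with any 1 library left out.

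The kinases and cyclins of mitotic entry all fell in Vhl cells, 8 of 8, with a median log2 change of -0.85. Ccnb1, cyclin B1 and the partner of Cdk1 (chr13:100778650-100786570, GRCm38), read 26.0, 23.6 and 25.5 CPM in Vhl Cre libraries against 52.1, 48.3 and 49.1 in Vhl GFP libraries. The groups lay far apart, and the log2 change was -0.99 (SE 0.06, adjusted p = 3.08e-12, edgeR). Ccnb2, cyclin B2, read 12.1, 11.4 and 11.6 CPM in Vhl Cre libraries against 26.0, 23.6 and 24.2 in Vhl GFP libraries. Its log2 change of -1.07 (SE 0.06, adjusted p = 5.32e-12, edgeR) again separated the groups fully. Plk1, the kinase that drives centrosome maturation and mitotic exit steps, had a log2 change of -1.10, and the smallest change of the role was that of Cdk1 itself, at -0.52.

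The spindle checkpoint genes and Cdc20 fell as well, 6 of 6. Bub1b, which encodes the checkpoint inhibitor BubR1, read 20.2, 20.8 and 22.4 CPM in Vhl Cre libraries against 42.4, 39.96 and 40.03 in Vhl GFP libraries, a log2 change of -0.95 (SE 0.05, adjusted p = 3.26e-12, edgeR). The 2 groups of libraries are tight and far apart. Cdc20, the activator that the checkpoint holds inactive, read 27.5, 26.4 and 32.5 CPM in Vhl Cre libraries against 57.8, 57.5 and 59.4 in Vhl GFP libraries, a change of -1.02. Ttk, the kinase Mps1 that starts checkpoint signalling, fell by 0.96, Mad2l1 by 0.65 and Bub1 by 0.59 on the log2 scale. Bub3, which brings Bub1 and BubR1 to kinetochores and also serves in interphase, read 70.4, 77.6 and 75.6 CPM in Vhl Cre libraries against 87.7, 86.9 and 88.3 in Vhl GFP libraries, the smallest change of all 45 genes at -0.23.

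Separase and securin moved by different amounts. Espl1, the separase protease, read 16.3, 15.1 and 17.4 CPM in Vhl Cre libraries against 29.7, 30.7 and 30.6 in Vhl GFP libraries, a log2 change of -0.90 (SE 0.10, adjusted p = 1.66e-07, edgeR). Pttg1, securin, the inhibitor of separase (chr11:43420250-43426251, GRCm38), read 10.7, 11.4 and 12.5 CPM in Vhl Cre libraries against 14.4, 14.6 and 14.5 in Vhl GFP libraries, a change of -0.33 (SE 0.08, adjusted p = 0.00289, edgeR). The groups did not overlap for either gene.

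Of the kinesin motors 7 of 8 fell. Kif23, the motor of the centralspindlin complex, read 23.4, 22.5 and 23.9 CPM in Vhl Cre libraries against 43.6, 38.4 and 42.2 in Vhl GFP libraries, a log2 change of -0.83. Kif2c, the microtubule depolymerase that corrects wrong attachments, read 15.3, 17.1 and 16.5 CPM in Vhl Cre libraries against 30.3, 30.6 and 32.5 in Vhl GFP libraries, a change of -0.93. Kif11, which pushes spindle poles apart, and Kif15, which can share that work, changed by -0.88 and -0.92. Kif20a, a cytokinesis motor, changed by -0.81, with 29.3% of its exon bases shared with the opposite-strand gene Cdc23, so that without a stated strand setting the reads of the pair cannot be told apart. The same holds for Kif4 with Pdzd11 at 15.1%, Cdc25c with Gm3550 at 12.7%, Ccna2 with Exosc9 at 12.5% and Prc1 with Rccd1 at 11.1%, and Ccnb1, Ccnb2, Kif22 and Kif4 have annotated pseudogenes that may share reads with them.

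All 7 kinetochore genes fell. Spc24, a subunit of the Ndc80 complex that grips microtubules, had the largest change of the 45 genes: 2.54, 2.53 and 2.96 CPM in Vhl Cre libraries against 6.79, 6.59 and 6.19 in Vhl GFP libraries, -1.29 on the log2 scale (SE 0.10, adjusted p = 9.21e-10, edgeR). The other subunits of that complex changed less, Nuf2 by -0.95, Ndc80 by -0.69 and Spc25 by -0.42. Cenpa, the histone variant that marks the centromere, read 15.9, 14.0 and 16.8 CPM in Vhl Cre libraries against 27.7, 27.3 and 26.3 in Vhl GFP libraries, a change of -0.80. Cenpf and Cenpe, outer kinetochore proteins, changed by -0.81 and -0.65.

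The chromosomal passenger complex, the Aurora B machine that releases faulty attachments, fell in 4 of 4 genes. Its kinase Aurkb read 13.8, 14.0 and 16.2 CPM in Vhl Cre libraries against 24.6, 24.1 and 24.0 in Vhl GFP libraries, a log2 change of -0.72. Survivin, Birc5, read 18.0, 18.6 and 20.7 CPM in Vhl Cre libraries against 33.2, 31.6 and 31.8 in Vhl GFP libraries, a change of -0.75. The scaffold Incenp and borealin, Cdca8, both changed by -0.53.

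The spindle assembly genes fell in 4 of 4, the central spindle and cytokinesis genes in 4 of 4 and the mitotic chromosome genes in 2 of 2. Aspm, a spindle pole protein, read 16.8, 14.9 and 16.4 CPM in Vhl Cre libraries against 31.0, 31.9 and 31.3 in Vhl GFP libraries, a log2 change of -0.97. Prc1, which bundles the microtubules of the central spindle, read 55.4, 54.0 and 55.6 CPM in Vhl Cre libraries against 95.3, 88.8 and 96.7 in Vhl GFP libraries, a change of -0.77. Racgap1, the partner of Kif23 in centralspindlin, read 38.1, 34.9 and 38.4 CPM in Vhl Cre libraries against 62.2, 58.3 and 64.0 in Vhl GFP libraries, a change of -0.73. Tpx2, which nucleates spindle microtubules and activates Aurora A, changed least in its role, by -0.31. Mki67, the coat of mitotic chromosomes used as a marker of dividing cells, read 105, 86.2 and 101 CPM in Vhl Cre libraries against 178, 181 and 179 in Vhl GFP libraries, a change of -0.88.

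In Vhl/Rassf1a cells 36 of the 45 genes fell with Cre and none rose, where 14.8% of all genes tested were lower and 14.9% higher, and these 36 were all among the 44 that fell in Vhl cells. Their median log2 change over the 45 genes was -0.32, with a range of -0.64 to 0.16. Cre libraries lay wholly below GFP libraries for 36 genes and wholly above for 1, where 19.3% and 19.8% of all genes did so. Over all libraries Espl1 had the largest change, with 25.6, 24.9 and 25.2 CPM in Vhl/Rassf1a Cre libraries against 36.4, 45.2 and 36.1 in Vhl/Rassf1a GFP libraries, -0.64 on the log2 scale (SE 0.10, adjusted p = 2.01e-05, edgeR). That rank rested on Vhl/Rassf1a GFP replicate 2: without it Espl1 was at -0.52, and Ect2, an activator of the cytokinesis GTPase RhoA, at -0.61, Kif15 at -0.61 and Spc24 at -0.59 had larger changes. The count was 32 without Vhl/Rassf1a GFP replicate 1, 37 without Vhl/Rassf1a GFP replicate 2 and 38 without both libraries that stood apart. Of the 36 calls 32 to 34 were kept with any 1 of the 6 libraries left out, and those lost at least once were Aurka, Aurkb, Bub3, Kif11, Mad2l1, Nuf2 and Anln.

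Bub1b in Vhl/Rassf1a cells read 41.8, 41.4 and 39.3 CPM with Cre against 54.6, 57.3 and 54.0 with GFP, a log2 change of -0.44 (SE 0.05, adjusted p = 7.75e-07, edgeR). Ccnb1 read 51.8, 50.7 and 53.7 CPM with Cre against 65.3, 59.5 and 67.4 with GFP, a change of -0.30. Mki67 read 200, 199 and 191 CPM with Cre against 277, 257 and 266 with GFP, a change of -0.44. For all 3 genes every Cre library lay below every GFP library. The heat map of the 45 genes shows the same libraries side by side with those of Vhl cells.

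The 9 genes not called in Vhl/Rassf1a cells were Kif4, Nusap1, Cenpe, Hmmr, Ndc80, Tpx2, Spc25, Bub1 and Kif18a. Nusap1, which anchors spindle microtubules to chromatin, was the gene with all Cre libraries above all GFP libraries: 26.6, 27.5 and 26.7 CPM in Vhl/Rassf1a Cre libraries against 24.6, 21.6 and 26.1 in Vhl/Rassf1a GFP libraries, a log2 change of 0.16 (SE 0.07, adjusted p = 0.0949, edgeR). Without Vhl/Rassf1a GFP replicate 3 it was 0.23 with an adjusted p of 0.0351, and without Vhl/Rassf1a GFP replicate 2 it was 0.08. Hmmr, a microtubule-bound spindle protein, read 60.4, 59.2 and 61.3 CPM in Vhl/Rassf1a Cre libraries against 75.05, 54.9 and 73.98 in Vhl/Rassf1a GFP libraries, -0.17 in all and -0.31 (adjusted p = 0.00196, edgeR) without Vhl/Rassf1a GFP replicate 2. Cenpe and Ndc80 were likewise called without that library, at -0.22 and -0.26, and not with it, at -0.15 and -0.13. For Cenpe the values were 76.1, 76.0 and 73.4 CPM in Vhl/Rassf1a Cre libraries against 88.4, 75.98 and 86.3 in Vhl/Rassf1a GFP libraries, and for Ndc80 20.4, 20.3 and 20.8 CPM against 24.6, 18.7 and 24.4.

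The same GFP library was the lowest of its group for Bub1, Spc25 and Kif18a. Bub1, a checkpoint kinase, read 38.6, 39.4 and 37.5 CPM in Vhl/Rassf1a Cre libraries against 41.2, 29.4 and 42.0 in Vhl/Rassf1a GFP libraries, a log2 change of 0.04, or -0.11 without that library. Spc25 read 20.5, 21.4 and 19.2 CPM in Vhl/Rassf1a Cre libraries against 21.4, 15.7 and 22.2 in Vhl/Rassf1a GFP libraries, a change of 0.05, or -0.10 without it. Kif18a read 11.3, 10.6 and 10.5 CPM in Vhl/Rassf1a Cre libraries against 13.2, 7.6 and 12.5 in Vhl/Rassf1a GFP libraries, a change of -0.03, or -0.25 without it. None of the 3 was called in either case, and Kif18a was called at -0.24 (adjusted p = 0.0195, edgeR) without both libraries that stood apart. Kif4, the chromosome-arm kinesin, read 33.1, 31.4 and 32.6 CPM in Vhl/Rassf1a Cre libraries against 35.8, 35.3 and 36.2 in Vhl/Rassf1a GFP libraries, a change of -0.14. Tpx2 read 128, 125 and 128 CPM in Vhl/Rassf1a Cre libraries against 135, 129 and 134 in Vhl/Rassf1a GFP libraries, a change of -0.06. Of the 36 called genes Aurka and Bub3 were lost without that library, at -0.11 and -0.09 (adjusted p = 0.17 and 0.214, edgeR).

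**Figure D3:**
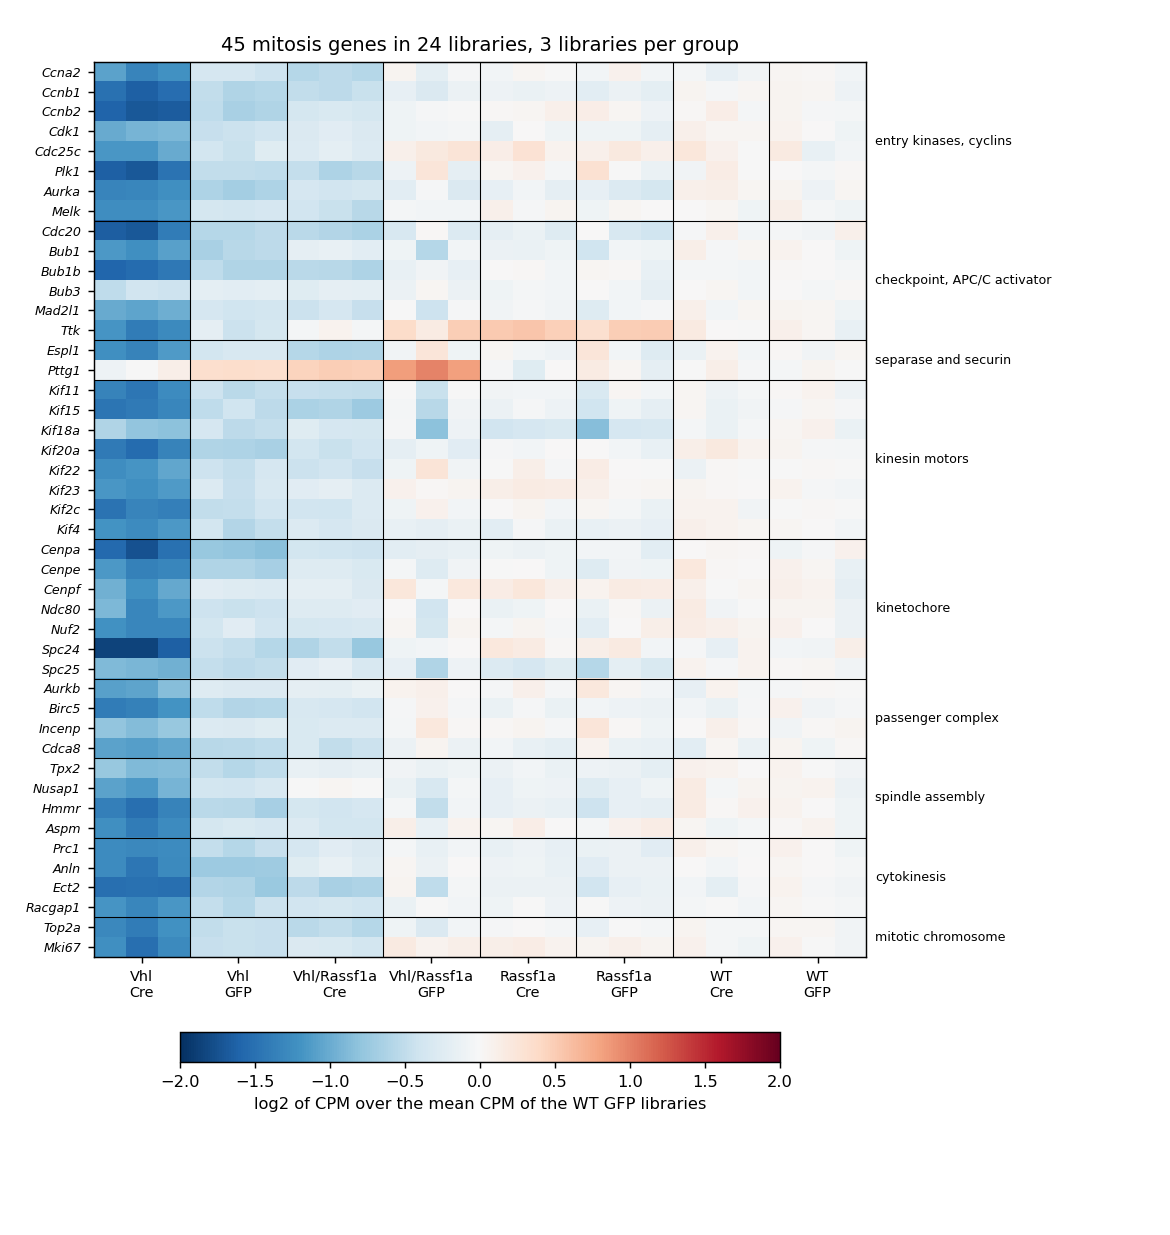
log2 of the CPM in each library over the mean CPM of the 3 WT GFP libraries, for 45 mitosis genes (rows, grouped by role) and 24 libraries (columns, 3 per group). The Vhl Cre columns are the darkest blue, the Vhl GFP and Vhl/Rassf1a Cre columns paler, Pttg1 is reddest in Vhl/Rassf1a GFP libraries, and Ttk is red in Rassf1a Cre and GFP and in Vhl/Rassf1a GFP libraries.

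The changes with Cre were smaller in Vhl/Rassf1a than in Vhl cells. The difference of the 2 Cre effects, tested in the same fit as an interaction, was called for 34 of the 45 genes, in each case a smaller fall in Vhl/Rassf1a cells, where 3.44% of all genes tested had a difference called in that direction and 2.65% in the other. The median difference over the 45 genes was 0.47, against 0.01 over all genes. The difference was called for 7 of 7 kinetochore genes, 4 of 4 spindle assembly genes, 7 of 8 entry kinases and cyclins, 5 of 8 kinesins, 4 of 6 checkpoint genes, 3 of 4 cytokinesis genes, 2 of 4 passenger genes, 2 of 2 mitotic chromosome genes and neither of separase and securin. The number of calls ran from 27, without Vhl Cre replicate 2, to 37, without Vhl/Rassf1a GFP replicate 1, and was 40 without both libraries that stood apart. The 2 lines also differed before Cre, with mean summed levels of 2056 CPM in Vhl GFP and 2757 CPM in Vhl/Rassf1a GFP cells. Genotype, this starting level and the embryos or cultures behind each line cannot be told apart in this contrast. Loss of the Rassf1a isoform could not be checked.

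Nusap1 had the largest difference, 0.86 (SE 0.10, adjusted p = 2.56e-05, edgeR), with 12.7, 12.1 and 14.0 CPM in Vhl Cre libraries against 20.9, 20.6 and 21.5 in Vhl GFP libraries beside its values in Vhl/Rassf1a cells given above. Ccnb2 followed at 0.78 (SE 0.09, adjusted p = 1.03e-05, edgeR), with 29.1, 29.8 and 29.0 CPM in Vhl/Rassf1a Cre libraries against 34.7, 36.1 and 36.7 in Vhl/Rassf1a GFP libraries. Spc24 was the third at 0.71 (SE 0.14, adjusted p = 0.00223, edgeR), with 6.01, 6.52 and 5.41 CPM in Vhl/Rassf1a Cre libraries against 8.65, 8.78 and 9.21 in Vhl/Rassf1a GFP libraries. Without Vhl/Rassf1a GFP replicate 2 the differences were 0.78 for Nusap1, 0.78 for Ccnb2 and 0.70 for Spc24, and Cdc20 stood above Spc24 at 0.72. In all 3 genes the Cre libraries of Vhl/Rassf1a cells were at more than the level of any Vhl Cre library.

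The smallest differences were those of Pttg1, Bub3 and Incenp. Pttg1 read 15.6, 16.1 and 16.0 CPM in Vhl/Rassf1a Cre libraries against 20.5, 22.7 and 20.1 in Vhl/Rassf1a GFP libraries, a fall of like size as in Vhl cells, with a difference of -0.08 (SE 0.12, adjusted p = 0.797, edgeR). Bub3 read 85.0, 88.7 and 88.3 CPM in Vhl/Rassf1a Cre libraries against 92.4, 103 and 92.6 in Vhl/Rassf1a GFP libraries, and Incenp 47.5, 48.7 and 48.5 CPM against 57.0, 68.1 and 59.8. The difference was 0.10 (SE 0.07) for Bub3 and 0.17 (SE 0.10) for Incenp, neither called; that of Incenp was called at 0.26 (adjusted p = 0.0108, edgeR) without both libraries that stood apart. Without Vhl/Rassf1a GFP replicate 2 Kif18a, at 0.03, had a smaller difference than Bub3 and Incenp. A missed call does not show that these genes changed alike.

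**Figure D4:**
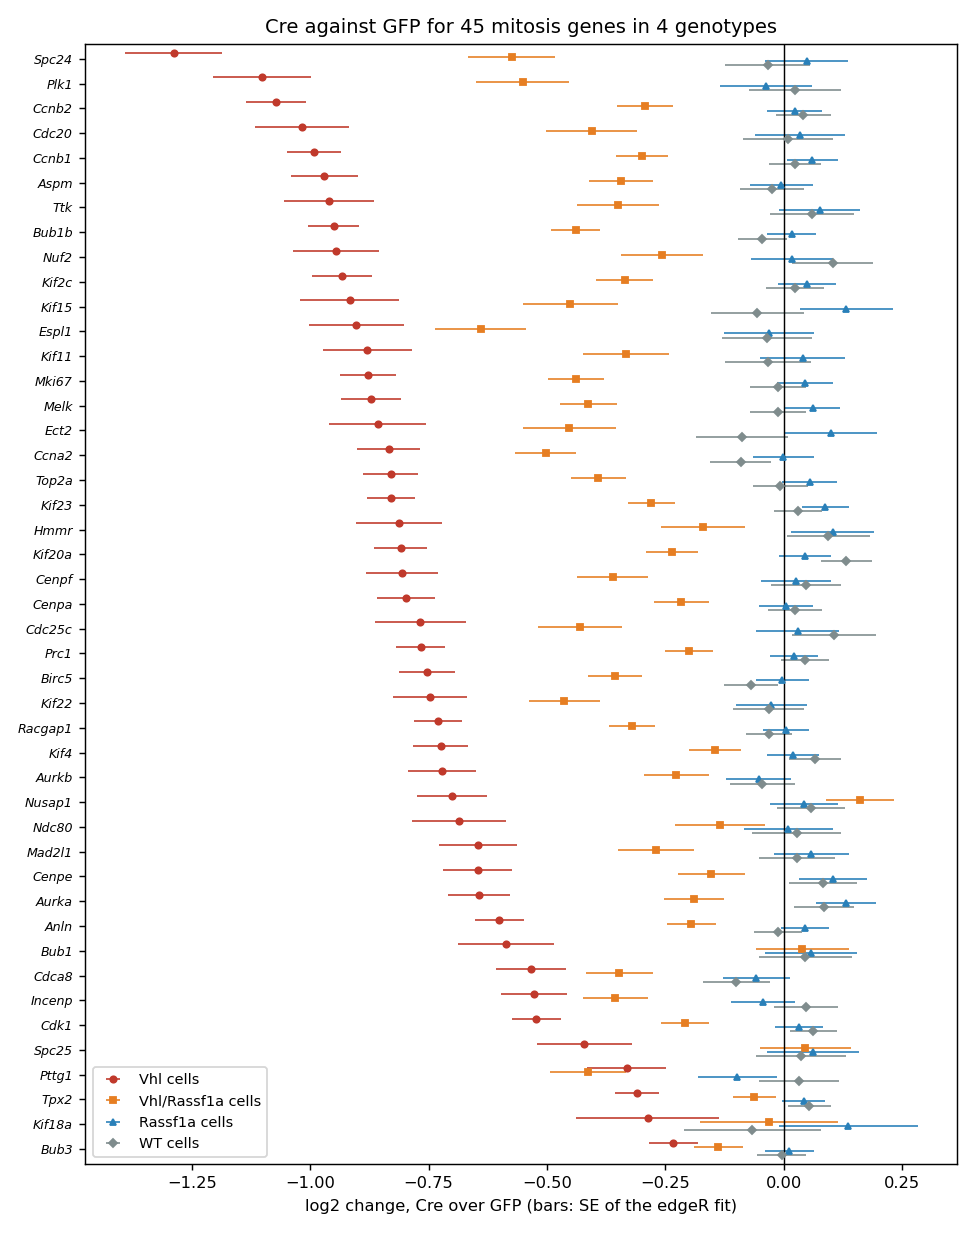
log2 change with Cre over GFP (horizontal axis) for each of the 45 mitosis genes (rows, ordered by the change in Vhl cells) in Vhl (red circles), Vhl/Rassf1a (orange squares), Rassf1a (blue triangles) and WT cells (grey diamonds), with the SE of the edgeR fit as bars. Vhl cells run from -1.29 for Spc24 to -0.23 for Bub3, and Rassf1a and WT cells stay within 0.14 of 0.

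In Rassf1a and WT cells none of the 45 genes was called with Cre, where 0.205% of all genes tested were lower and 0.187% higher in Rassf1a cells, and 0.428% lower and 0.833% higher in WT cells. The edgeR changes ran from -0.10 to 0.14 in Rassf1a cells and from -0.10 to 0.13 in WT cells, and at an unadjusted p under 0.05 there was 1 gene in each, Aurka in Rassf1a and Kif20a in WT cells, both higher with Cre. The DESeq2 Wald test also called 0 genes in both. With any 1 library of the genotype left out, edgeR called 0 of the 45 genes in either. The 95% intervals reached down to -0.27 at the lowest in Rassf1a cells, for Pttg1, and to -0.37 in WT cells, for Kif18a, so that falls of the median size in Vhl cells lie outside every one of them. Bub1b read 60.6, 61.3 and 58.4 CPM in Rassf1a Cre libraries against 62.2, 61.4 and 54.6 in Rassf1a GFP libraries, and 58.9, 59.0 and 57.9 CPM in WT Cre libraries against 61.7, 61.1 and 58.6 in WT GFP libraries. Cre and GFP values overlap in both genotypes. No gene of the set had all Cre libraries below all GFP libraries, where 5.58% of all genes did in Rassf1a cells and 6.29% in WT cells; Kif23 and Ect2 in Rassf1a cells and Kif20a in WT cells had all Cre libraries above, where 5.17% and 8.74% of all genes did.

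Set against the Cre effect in WT cells, that in Vhl cells was lower for 44 of the 45 genes, with 12.5% of all genes tested called lower and 10.7% higher, and that in Vhl/Rassf1a cells for 26, with 7.4% of all genes lower and 7.41% higher. Set against Rassf1a cells, the Cre effect in Vhl/Rassf1a cells was lower for 28 of the 45 genes, with 7.1% of all genes lower and 7.95% higher. No gene of the set differed between Rassf1a and WT cells in its Cre effect by the edgeR test (adjusted or at an unadjusted p under 0.05), where 0.00603% of all genes did so after adjustment, and DESeq2 called 0 as well. The median differences were -0.81, -0.32, -0.33 and 0.02 in that order. The comparisons share WT or Vhl/Rassf1a libraries and are not independent of each other. In each of them genotype and the embryos or cultures behind it cannot be told apart. The count of 28 was 18 when the fit held no other groups than the 4 compared, and 36 without both libraries that stood apart.

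The genotypes also differed before Cre. In GFP libraries 44 of the 45 genes were lower in Vhl than in WT cells and 1, Pttg1, was higher, where 14.9% of all genes tested were lower and 17.2% higher. The median log2 difference was -0.47. Anln, the cytokinesis scaffold anillin, read 118, 118 and 120 CPM in Vhl GFP libraries against 201, 196 and 191 in WT GFP libraries, a difference of -0.72 (SE 0.05, adjusted p = 2.4e-10, edgeR); it was chosen for this smallest p after its values were seen. Cenpa had the largest difference, -0.80, with 44.5, 46.4 and 50.2 CPM in WT GFP libraries. Genotype and the embryos or cultures behind each genotype cannot be told apart in this contrast.

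The Vhl/Rassf1a and Rassf1a lines differed from WT in few of these genes before Cre. In Vhl/Rassf1a GFP libraries 2 genes, Ccnb1 and Cenpa, were lower than in WT GFP libraries and 2, Pttg1 and Ttk, were higher, where 4.68% and 6.86% of all genes were. In Rassf1a GFP libraries 7 genes were lower, Aurka, Spc25, Kif18a, Ccnb1, Prc1, Tpx2 and Anln, and 1, Ttk, was higher, where 6.68% and 9.39% of all genes were. The count of 7 was 0 when the fit held no other groups than the 2 compared. Leaving out WT GFP replicate 1 gave 1, WT GFP replicate 2 gave 3, and either Rassf1a GFP replicate 1 or Rassf1a GFP replicate 3 gave 4; without Rassf1a GFP replicate 1 the 4 held 3 of the 7. For Vhl/Rassf1a GFP libraries neither Ccnb1 nor Cenpa was called without Vhl/Rassf1a GFP replicate 2, without both libraries that stood apart or without WT GFP replicate 2; other genes made up the lower counts of 3, 4 and 1 there. Ccnb1 was also lost without WT GFP replicate 1, and Cenpa without WT GFP replicate 3 or Vhl/Rassf1a GFP replicate 1. Ttk was lost without WT GFP replicate 3, at 0.28, or without Vhl/Rassf1a GFP replicate 3, at 0.26.

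Pttg1 did not follow the other genes across groups, and Ttk was the other gene higher in a GFP line than in WT. Pttg1 was highest in Vhl/Rassf1a GFP cells, at the values given above, against 11.1, 11.9 and 11.4 CPM in WT GFP libraries, a log2 difference of 0.88 (SE 0.08, adjusted p = 4.38e-08, edgeR). It was also higher in Vhl GFP than in WT GFP libraries, by 0.34, and lowest in Rassf1a Cre libraries at 11.3, 9.7 and 11.5 CPM. Its r with the log2 summed CPM of the 45 genes over the 8 groups was 0.0715, where all 44 others had 0.781 or more, as a description of 8 points. Each gene is itself part of that sum, so a high r is partly built in. Ttk (chr9:83834689-83872389, GRCm38) read 20.8, 23.5 and 23.8 CPM in Rassf1a GFP libraries and 21.7, 18.7 and 23.6 in Vhl/Rassf1a GFP libraries against 17.9, 17.2 and 15.2 in WT GFP libraries, differences of 0.44 and 0.34. The differences of Ttk shared the WT GFP libraries.

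**Figure D5:**
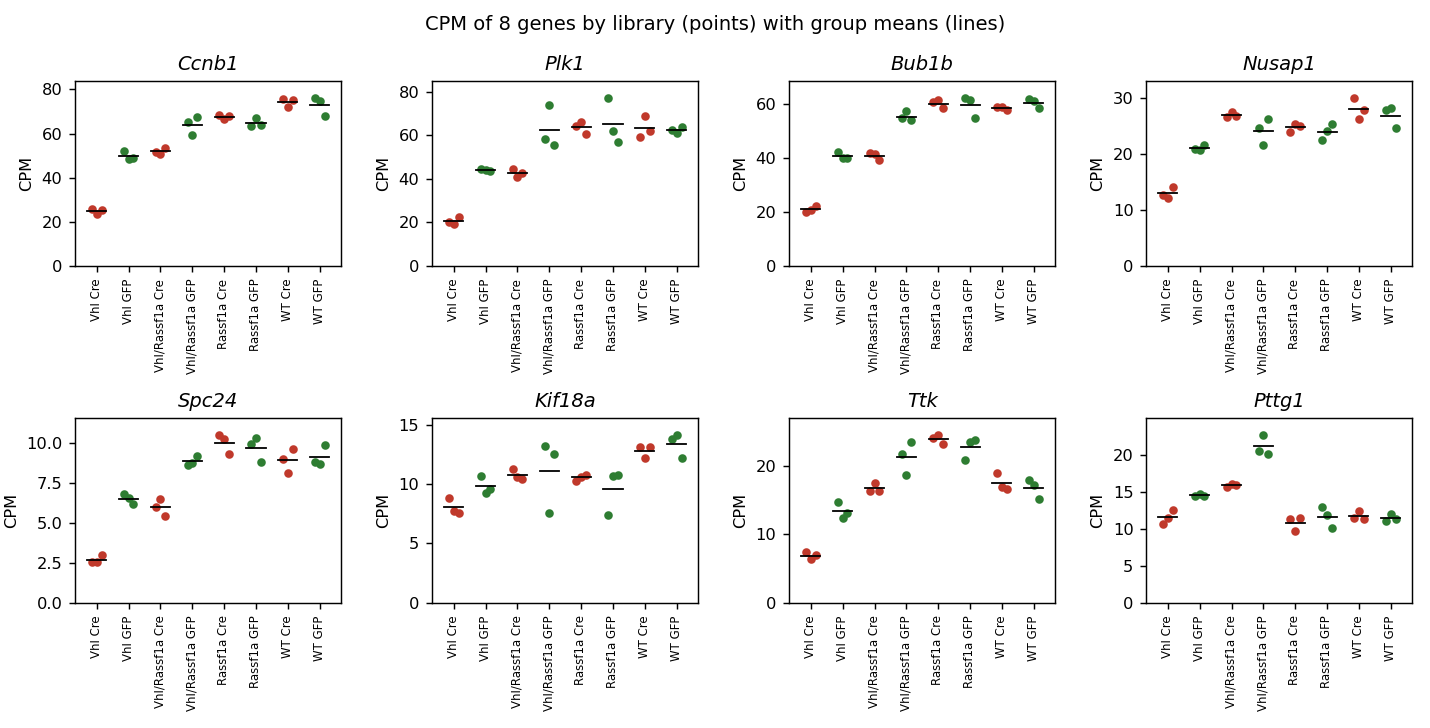
CPM of 8 genes in each library (points; red Cre, green GFP) with group means (lines), by group. Ccnb1, Plk1, Bub1b and Spc24 are lowest in Vhl Cre cells, Nusap1 is not lowered with Cre in Vhl/Rassf1a cells, 1 Vhl/Rassf1a GFP library is low for Kif18a, Ttk is high in Rassf1a cells and Pttg1 in Vhl/Rassf1a GFP cells.

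Cre libraries were also compared between lines, where genotype and the embryos or cultures behind it cannot be told apart either. In Vhl Cre libraries 44 of the 45 genes were lower than in WT Cre libraries, where 21.9% of all genes were lower and 22.8% higher, and the median log2 difference was -1.27; the gene not called was Pttg1, at -0.02. In Vhl/Rassf1a Cre libraries 39 were lower and 1, Pttg1, was higher, where 15.8% and 17.5% of all genes were, with a median of -0.36. In Rassf1a Cre libraries 5 were lower (Prc1, Aurka, Kif4, Tpx2 and Spc25) and 1, Ttk, was higher, where 5.3% and 7.09% of all genes were. The 5 became 0 without WT Cre replicate 1, Rassf1a Cre replicate 1 or Rassf1a Cre replicate 3, 3 without WT Cre replicate 2 or replicate 3, and 12 when the fit held no other groups than the 2 compared.

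Over the 8 groups, 44 of the 45 genes had their lowest mean in Vhl Cre cells. The highest mean exceeded the lowest by a median of 2.48 times, from 1.35 times for Bub3 to 3.75 times for Spc24. Highest means were spread over groups, with 18 genes in WT Cre, 11 in WT GFP, 6 in Rassf1a Cre, 4 in Rassf1a GFP and 6 in Vhl/Rassf1a GFP cells; these neighbours in the order were not tested against each other. The median coefficient of variation between replicates was 2.71% to 7.95% over the groups, highest in Vhl/Rassf1a GFP. Per kilobase of merged exons, Cdc20 had the highest level of the set in WT GFP cells, 45.9 CPM per kilobase, followed by Tpx2 at 30.2 and Plk1 at 28.4, and Kif18a had the lowest, 1.36.

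Among 10484 other genes with a mean of at least 5 CPM, those whose mean log2 CPM over the 8 groups correlated most with the log2 summed CPM of the 45 were Spag5, with r = 0.998, Cdca3, with 0.997, and Cdca2, Pif1 and Ncapd2, with 0.996 each. Spag5 encodes a mitotic spindle protein, and its means were 20.2 CPM in Vhl Cre against 32.8 in Vhl GFP cells and 35.1 CPM in Vhl/Rassf1a Cre against 43.7 in Vhl/Rassf1a GFP cells. These r values describe 8 points that share their libraries.

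Other genes of division outside the set were examined by list. Over all genes tested 18.7% were lower and 17.4% higher in Vhl cells, 14.8% and 14.9% in Vhl/Rassf1a cells, and the difference was called higher for 3.44% and lower for 2.65%; counts in the lists that follow are to be read beside these shares. In Vhl cells 17 of 26 other centromere and kinetochore genes were lower and 2 higher, 16 of 22 other spindle and centrosome genes were lower, and 10 of 17 condensin and cohesin genes were lower. Kif14, a cytokinesis kinesin, had a log2 change of -1.04, the kinase Nek2 of -0.88, the condensin subunits Ncapd2 and Ncaph of -0.70 and -0.60, and the kinetochore genes Cenpw, Cenpn, Dsn1 and Ska3 of -0.72, -0.64, -0.55 and -0.55. In Vhl/Rassf1a cells the lower counts were 7, 8 and 4 for the same lists, with 2, 0 and 0 higher. The difference between the genotypes was called for 3, 9 and 2 genes, each a smaller fall in Vhl/Rassf1a cells, among them Nek2 at 0.52, Kif14 at 0.48 and Sgo1, which protects centromeric cohesin, at 0.69.

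Of 17 APC/C subunits and partners 6 were lower and 1 higher in Vhl cells. Ube2c, the ubiquitin-conjugating enzyme of the APC/C, changed by -0.85, and the inhibitor Fbxo5 by -0.66; Cdc26 and Cdc23, core subunits, changed by -0.32 and -0.18. In Vhl/Rassf1a cells 5 were lower, Ube2c was at -0.17 (adjusted p = 0.0715, edgeR), and its difference between the genotypes was 0.68 (adjusted p = 0.000186, edgeR). Of 14 inhibitors of cyclin-dependent kinases and mitotic brakes, 8 were lower and 2 higher in Vhl cells, and 3 lower and 4 higher in Vhl/Rassf1a cells; the 2 of 14 and 3 of 14 are near the shares of all genes. Cdkn1c, the inhibitor p57, was higher with Cre by 0.94 in Vhl and by 0.40 in Vhl/Rassf1a cells, a difference of -0.53 (adjusted p = 0.0225, edgeR), while Cdkn2c, the inhibitor p18, was lower by -1.05 and -0.67. Wee1, the kinase that restrains Cdk1, changed by -0.54 and -0.26, and Btg2, an antiproliferative gene, by -0.55 in Vhl and 0.02 in Vhl/Rassf1a cells.

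Regulators that switch these genes on or off were also examined. Of 22 transcription regulators 10 were lower in Vhl cells and 7 were lower with 1 higher in Vhl/Rassf1a cells, and no difference between the genotypes was called (edgeR; 3 at an unadjusted p under 0.05). Foxm1, the activator of late cell cycle genes, changed by -0.43 in Vhl and -0.41 in Vhl/Rassf1a cells, E2f8, an E2F repressor, by -0.59 and -0.33, and Rbl1, the pocket protein p107, by -0.69 and -0.32. Of 22 S phase genes 18 were lower and 1 higher in Vhl cells and 16 were lower in Vhl/Rassf1a cells, with medians of -0.33 and -0.36. The difference between the genotypes was called for none of the 22 (edgeR; 4 at an unadjusted p under 0.05), and its median was 0.00, beside the 34 of 45 and the median of 0.47 for the mitosis genes; the 2 lists were not tested against each other. Mcm6, Mcm4 and Mcm2, subunits of the replicative helicase, changed by -0.33, -0.30 and -0.45 in Vhl and by -0.49, -0.34 and -0.52 in Vhl/Rassf1a cells, and Uhrf1, which maintains DNA methylation, by -0.69 and -0.68.

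Of 8 genes on a list of Rassf1 and its partners in the Hippo pathway 4, Rassf1 among them, were higher with Cre in both Vhl and Vhl/Rassf1a cells and none was lower. Rassf1 itself changed by 0.72 in Vhl and 0.47 in Vhl/Rassf1a cells, Lats2, a Hippo kinase, by 0.47 and 0.25, Stk4 by 0.39 and 0.22, and Sav1 by 0.18 and 0.35. Among HIF targets, Egln3 changed by 3.61 in Vhl and 2.99 in Vhl/Rassf1a cells, Car9 by 4.73 and 4.53, Pdk1 by 2.00 and 2.21, and Pgk1 by 1.58 and 1.52. Of these 4, the difference between the genotypes was called for Egln3, at -0.62.

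Markers of other cell types moved with Cre beside the mitosis genes. Of 12 fibroblast markers 7 were lower in Vhl cells, with a sum of 46800 to 50300 CPM in Vhl Cre against 57300 to 59600 in Vhl GFP libraries, and 1 lower and 1 higher in Vhl/Rassf1a cells. Of 8 epithelial markers 6 were tested, and 5 were higher in Vhl and 3 in Vhl/Rassf1a cells, with sums of 127 to 147 CPM in Vhl Cre against 38.5 to 39.4 in Vhl GFP libraries and 194 to 202 CPM in Vhl/Rassf1a Cre against 75.7 to 97.7 in Vhl/Rassf1a GFP libraries, while the defining markers Epcam and Cdh1 stayed below 1 CPM in all 24 libraries. Of 8 skeletal muscle markers 4 were tested and 3 were higher in Vhl cells, with sums of 382 to 459 CPM in Vhl Cre against 136 to 154 in Vhl GFP libraries. In Vhl/Rassf1a cells 2 were higher, with sums of 466 to 490 CPM in Cre against 195 to 247 in GFP libraries, and Myod1 and Myog stayed below 1 CPM in all 24 libraries. Macrophage markers summed to at most 7.27 CPM, endothelial markers to at most 16.1 CPM and erythroid markers to at most 0.561 CPM in any library. Endothelial sums were 14.0 to 14.9 CPM in Vhl Cre against 8.48 to 9.6 in Vhl GFP libraries, without overlap. In Vhl/Rassf1a cells they overlapped, at 14.7 to 16.1 CPM in Cre against 14.0 to 15.4 in GFP libraries. Macrophage sums were 6.16 to 7.27 CPM in Vhl/Rassf1a Cre against 4.08 to 5.36 in Vhl/Rassf1a GFP libraries, and overlapped in Vhl cells. Of 8 neural markers 6 were tested, with 2 lower and 2 higher in Vhl cells and 2 lower and 3 higher in Vhl/Rassf1a cells. Their sums were 603 to 626 CPM in Vhl Cre against 562 to 576 in Vhl GFP libraries and 627 to 648 CPM in Vhl/Rassf1a Cre against 519 to 569 in Vhl/Rassf1a GFP libraries, without overlap in either genotype. The part of cell makeup in the change of the mitosis genes was not tested.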

How the data were processed

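Raw read counts per Ensembl gene in 24 libraries were used as deposited by the authors; the table holds whole-number counts. Per the submitters' processing notes, reads were trimmed with Trimmomatic 0.38 and aligned with STAR 2.5.2b to GRCm38; RNA came from a NucleoSpin kit and a stranded TruSeq kit, per the labels' protocols. Which tool, strand setting and annotation made the counts is not given in the sources used here. The series' design note names single cells of kidney epithelium; the sample labels were followed.

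Symbols and positions came from GENCODE M21. Genes kept by filterByExpr (minimum count 10, total 15; 16573 genes) entered 1 edgeR 4.0.16 quasi-likelihood fit in R 4.3.3 with 8 group means, TMM scaling and 16 residual degrees of freedom. P-values are two-sided, adjusted by Benjamini-Hochberg over all genes within each of 15 comparisons. The SE is the log2 change divided by the square root of F. The script was tested on simulated data. DESeq2 1.42.0, GC offsets and left-out libraries served as alternatives. Named genes were the smallest adjusted p in Vhl cells per role (a pair, or 1 in roles of 2 genes) and per other list (4), genes not called, the 3 largest and 3 smallest differences, and the 5 genes most alike. The genes, lists and rules were chosen with earlier results of these data known. Pairs of replicates differed by more than sampling noise, with a chi-square over degrees of freedom of at least 2.93. Same-numbered replicates did not deviate together (r from -0.378 to 0.205), so numbers were not used as pairs.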

Additional observations from a re-analysis of the deposited data

Results flagged for a closer look

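The Cre effect differed between genotypes by the interaction test of the edgeR fit. It was lower in Vhl than in WT cells for 44 of the 45 mitosis genes, lower in Vhl/Rassf1a than in WT cells for 26, lower in Vhl/Rassf1a than in Rassf1a cells for 28, and higher, that is a smaller fall, in Vhl/Rassf1a than in Vhl cells for 34. The largest of the last differences were Nusap1 at 0.86, Ccnb2 at 0.78 and Spc24 at 0.71 on the log2 scale. In all these contrasts genotype and the embryos or cultures behind each line cannot be told apart. Groups had 3 libraries each, too few for a check of single libraries by their gaps.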

How the results depend on the processing

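In the Cre comparisons and their differences no call of a mitosis gene turned sign. The 44 calls in Vhl cells held under every alternative run, with 45 calls when the fit held no other groups. In Vhl/Rassf1a cells 32 to 37 genes were called with 1 library left out, 32 to 34 of them among the 36, and 30 of the 36 were kept when the fit held no other groups. The higher count there was 0 to 1 with 1 library left out, the 1 being Nusap1. Differences gave 42 to 44 calls for Vhl against WT, 21 to 32 for Vhl/Rassf1a against WT, 22 to 32 for Vhl/Rassf1a against Rassf1a (18 with only the groups compared) and 27 to 37 for Vhl/Rassf1a against Vhl. Between lines, Rassf1a GFP against WT GFP had 1 to 8 lower with a library left out and 0 with only the groups compared, and 2 higher with GC-corrected offsets. Vhl/Rassf1a GFP against WT GFP had 1 to 3 lower with a library left out, 4 without the filter, by DESeq2 and without both libraries that stood apart, 8 with GC-corrected offsets, 1 with the replicate block and 0 with only the groups compared; 1 to 2 were higher with a library left out and 1 with only the groups compared. Rassf1a Cre against WT Cre had 0 to 5 lower with a library left out, 2 without the filter, 9 with GC-corrected offsets and 12 with only the groups compared. Among genes not called in Vhl/Rassf1a cells the sign turned for Bub1 (-0.0036 with GC-corrected offsets, -0.11 without both libraries that stood apart, -0.11 to 0.13 with 1 library left out), Spc25 (-0.10 without both, -0.10 to 0.14 with 1 left out) and Kif18a (-0.25 to 0.12 with 1 left out, above 0 without Vhl/Rassf1a GFP replicate 1 and at 0.07 without replicate 3). Promoter shares in only the 150 bases before the start were 31.6% for the homology region and 26.3% for both elements. The labels do not say whether replicates that share a number are pairs. With the replicate block 44 genes were lower in Vhl cells. The causes of these moves were not tested. Where a left-out library leaves 2 in a group, the spread is pooled over all groups. Depth limits the lowest genes, Spc24 and Cdc25c among them.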
